A study of Mus musculus with 4 samples.

Results

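The proteasome genes described here are the subunits named Psma, Psmb, Psmc or Psmd with a number, which build the machine that degrades ubiquitin-tagged proteins. They were taken from the expression table by symbol, as protein-coding genes with nothing after the number, which leaves out Psmc3ip, a recombination protein that shares only the start of its name. This gave 39 genes of 27179 in the table. Of these, 7 encode the constitutive alpha subunits of the 20S core, 7 its constitutive beta subunits, 3 the immunoproteasome subunits Psmb8, Psmb9 and Psmb10, and 20 carry the Psmc (6 genes) and Psmd (14 genes) names of the 19S regulator. The last 2 are Psma8, known from the testis, and Psmb11, known from the thymus. RNA was sequenced from 2 B7-H4-null and 2 wild-type libraries of leukemia stem cells (LSCs) from the bone marrow of a mouse model of acute myeloid leukemia on the C57BL/6 strain. The cells of both genotypes were sorted as positive for yellow fluorescent protein, Mac-1 and c-Kit. The labels do not name the leukemia's driving gene, the age of the mice or whether each library is a different mouse. The p-values given here therefore cover the variation among 4 libraries, which may be technical. B7-H4, encoded by Vtcn1, is a surface ligand that restrains T cells, and the comparison asks which transcripts differ when it is missing.

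The 20S core is a barrel of stacked rings. Alpha subunits form the outer rings and gate the entrance, and beta subunits form the inner rings, where Psmb5, Psmb6 and Psmb7 carry the cutting sites. Interferon induces Psmb8, Psmb9 and Psmb10, which replace Psmb5, Psmb6 and Psmb7 in new particles and change which peptides reach MHC class I. Blood cells are known to hold this immunoproteasome without stimulation. The 19S regulator binds tagged proteins, removes ubiquitin and threads the chain into the core. Psma8 takes the place of Psma7 in the alpha ring of male germ cells.

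The promoters of 2 pairs of interchangeable subunits are shown, because the immunosubunit and its constitutive partner hold the same slot in the core. Each is the RefSeq window on GRCm38.p6 from 250 bases before to 50 bases after the annotated start, printed along the gene's strand, 5′ to 3′. Capitals mark matches, on either strand, to TTCNNNGAA (interferon gamma activated site), the interferon stimulated response element (GAAA, any 2 bases, GAAA), TGACNNNGC (antioxidant response element) or CCAAT.
Psmb8, chr17:34197945-34198244, plus strand: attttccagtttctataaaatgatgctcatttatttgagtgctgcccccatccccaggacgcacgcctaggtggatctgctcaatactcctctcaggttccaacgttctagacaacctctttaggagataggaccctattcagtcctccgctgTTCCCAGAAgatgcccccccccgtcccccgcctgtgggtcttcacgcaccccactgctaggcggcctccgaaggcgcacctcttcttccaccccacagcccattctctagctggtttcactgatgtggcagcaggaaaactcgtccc
Psmb5, chr14:54617946-54618245, minus strand: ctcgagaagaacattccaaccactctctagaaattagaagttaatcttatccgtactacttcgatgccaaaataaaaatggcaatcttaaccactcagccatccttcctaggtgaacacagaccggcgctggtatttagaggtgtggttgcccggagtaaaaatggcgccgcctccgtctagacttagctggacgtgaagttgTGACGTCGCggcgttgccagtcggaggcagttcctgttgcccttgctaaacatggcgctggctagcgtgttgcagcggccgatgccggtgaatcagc
Psmb9, chr17:34187281-34187580, minus strand: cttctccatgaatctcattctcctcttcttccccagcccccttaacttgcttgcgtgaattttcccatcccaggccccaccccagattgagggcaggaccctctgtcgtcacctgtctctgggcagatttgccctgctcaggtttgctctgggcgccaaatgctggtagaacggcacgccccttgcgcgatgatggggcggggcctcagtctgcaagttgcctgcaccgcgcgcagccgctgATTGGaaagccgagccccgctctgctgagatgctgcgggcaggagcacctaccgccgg
Psmb6, chr11:70525107-70525406, plus strand: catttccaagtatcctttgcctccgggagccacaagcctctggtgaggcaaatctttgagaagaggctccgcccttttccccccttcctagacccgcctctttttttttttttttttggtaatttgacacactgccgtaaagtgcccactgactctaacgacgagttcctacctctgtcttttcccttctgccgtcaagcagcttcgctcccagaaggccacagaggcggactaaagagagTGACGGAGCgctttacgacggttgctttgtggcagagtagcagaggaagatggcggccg

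In these windows Psmb8 held the TTCNNNGAA letters from base -97 to -89 before its start, Psmb9 held CCAAT on the opposite strand from -8 to -4, and Psmb5 and Psmb6 held TGACNNNGC from -47 to -39 and from -9 to -1. No marked matches overlapped in these 4 windows. The Psmb9 window shares 275 bases with that of Tap1, a peptide transporter gene that starts 226 bases away and points the other way. Windows were matched for 32 of the 39 members, and Psma8, Psmb1, Psmb2, Psmb7, Psmc3, Psmd3 and Psmd7 had no entry. CCAAT was in 13 of the 32 (40.6%), against 41.1% of the 27025 genes with a window. TGACNNNGC was in 5 (15.6%), against 14% of all genes, TTCNNNGAA in 2 (6.25%), against 9.55%, and the interferon stimulated response element in 3 (9.38%), against 3.99%. A match is a description of the sequence only, and these shares were not tested. By class, CCAAT was present in 5 of 7 alpha, 1 of 4 constitutive beta and 1 of 3 immunosubunit windows. It was in 2 of 5 Psmc and 3 of 12 Psmd windows, against 41.1% of all genes. The interferon stimulated response element was found in 0 of 3 immunosubunit windows, against 3.99% of all genes, too few windows to show a difference.

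Levels are in RPKM, a read count divided by gene length and by the library's total, over 9419425 to 10814448 reads per library. Vtcn1 had 1 read in each B7-H4-null library and 0 in each wild-type library, too few to check the genotype labels. Pearson's r over all 12107 tested genes was 0.948 between the B7-H4-null libraries, 0.957 between the wild-type libraries and 0.909 to 0.950 across genotypes, so B7-H4-null replicate 2 was as close to wild type as to its own group. The sort markers Kit, Itgam and Itgb2 were present in every library, and 0 were called. Itgb2 had 123 and 146 RPKM in B7-H4-null and 212.6 and 212.9 RPKM in wild type (limma adjusted p = 0.371). Itgam had 82.9 and 59.9 RPKM in B7-H4-null and 114 and 86.9 RPKM in wild type (adjusted p = 0.556). Both lay lower in B7-H4-null without overlap, against 28% of all genes, and Itgb2 alone had an unadjusted p under 0.05. Kit overlapped between the groups, with 24.01 and 7.19 RPKM in wild-type replicates 1 and 2. No marker of T and NK cells reached 1 RPKM in any library. Nor did 5 of 6 in each of the erythroid, B cell, germ cell and dendritic cell lists. The exceptions were Hbb-bs at up to 1.83 RPKM, Sycp3, described with Psma8, Flt3, given below, and Cd79b. Cd79b had 58.7 and 60.7 RPKM in B7-H4-null and 35.4 and 45.5 RPKM in wild-type LSCs. Each of the 11 mature neutrophil markers was below wild type in both B7-H4-null replicates without a call, against 28% of all genes, and 10 had an unadjusted p under 0.05, against 7.2% of all genes in that direction. They summed to 6735 and 8410 RPKM in B7-H4-null, against 23350 and 13704 RPKM in wild type. Markers of monocytes and macrophages summed to 1499 and 1665 RPKM in B7-H4-null and to 964 and 1199.8 RPKM in wild type, mostly from Ly6c2. Of these 7 markers 0 were called. At an unadjusted p under 0.05, 3 were higher, against 5.05% of all genes, and 4 lay higher without overlap, against 16%. Cx3cr1 is counted in both numbers, though it passed the filter through the B7-H4-null libraries alone. Csf1r, Ccr2 and Adgre1 overlapped between the groups. Dendritic cell markers summed, nearly all from Flt3, to 99.5 and 104 RPKM in B7-H4-null and to 9.56 and 23.4 RPKM in wild type. These sums describe Flt3 and not the list, and Flt3 was not called (limma adjusted p = 0.13). The part of these marker levels in the results that follow was not tested, and fewer cells of a type cannot be told apart from less RNA per cell.

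Of the 38 members that could be tested, Psma8 alone passed, and it was absent from B7-H4-null LSCs. Psma8 had 0 reads in both B7-H4-null libraries, against 8.15 and 8.80 RPKM in wild-type replicates 1 and 2, or 140 and 148 reads. The groups did not overlap, and the wild-type libraries averaged 8.48 ± 0.458 RPKM (SD, n = 2). The log2 difference of log2(RPKM + 1) was −3.24 ± 0.257 (SE, limma adjusted p = 0.0154). Against a floor of 3 reads over both B7-H4-null libraries, 0.0876 RPKM, it was at least 96.7-fold lower in B7-H4-null. Across all 12107 genes limma called 12, or 0.0991%, with 5 higher (0.0413%) and 7 lower (0.0578%), and Psma8 is 1 of the 7. Psma8 passed the filter through the wild-type libraries alone, and with no filter on low values its call ended (adjusted p = 0.253), as 0 genes were then called. Without B7-H4-null replicate 1 or 2 the difference stayed at −3.24, but the call ended (adjusted p = 0.2 and 0.0743), as it did for every gene.

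Psma8 (gene ID 73677, GRCm38.p6 chromosome 18, 14706135 to 14762301) lies between Ss18, a chromatin remodelling subunit 21.7 kb away, and Taf4b, a transcription factor subunit 20.9 kb away on the other side. Both neighbours were read in every library, and neither was called. Ss18 had 17.3 and 25.7 RPKM in B7-H4-null LSCs and 29.5 and 29.3 RPKM in wild-type LSCs (log2 difference −0.46, adjusted p = 0.565). Like Psma8, Ss18 lay lower in B7-H4-null without overlap, as did 28% of all genes. Taf4b had 2.74 and 5.44 RPKM in B7-H4-null and 4.29 and 2.19 RPKM in wild type, so its groups overlapped. Kctd1, 206 kb away, had 2.49 and 2.24 RPKM in B7-H4-null and 2.64 and 2.27 RPKM in wild type. The remaining protein-coding genes within 1 Mb, Zfp521, Aqp4 and Chst9, had at most 3 reads in any library.

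**Figure D1:**
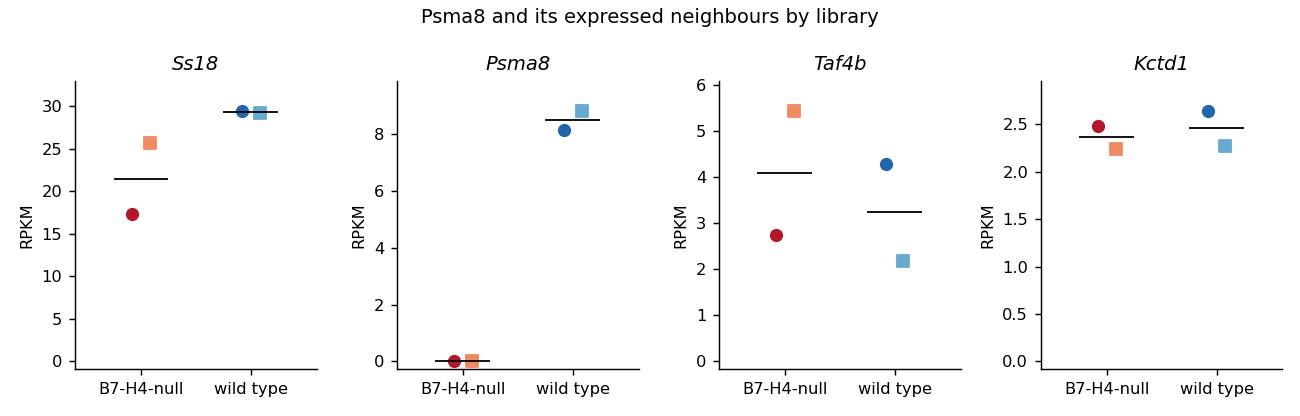
RPKM (vertical axes, each starting near 0) of Psma8 and the expressed genes beside it on its chromosome, with B7-H4-null libraries left of wild-type libraries; circles are replicate 1, squares replicate 2 and bars the means. Psma8 sits at 0 in both B7-H4-null libraries and above 8 RPKM in both wild-type libraries, while Ss18, Taf4b and Kctd1 are present in all 4.

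Of 1002 protein-coding genes with no read in B7-H4-null LSCs and at least 1 in wild type, Psma8 had the most wild-type reads, 288. Mtcl1, a microtubule crosslinking protein, followed with 161 reads and Strc, which encodes stereocilin of the inner ear, with 106. The next, Txndc2 and Lepr, had 15 and 11 reads, so only 3 genes of this kind had more than 20. Of the summed RPKM of Psma8 and Psma7, Psma8 made up 0% in both B7-H4-null libraries, where 3 reads would correspond to 0.0896% and 0.0529%, against 3.83% and 3.39% in wild-type replicates 1 and 2. Psma7, the alpha subunit it can replace, had 210 and 310 RPKM in B7-H4-null and 205 and 251 RPKM in wild type (adjusted p = 0.852). Even in wild type, then, Psma7 transcripts were in large excess.

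Other germ line genes were mostly silent. Of 20, 14 stayed under 1 RPKM in every library and 4 of these had no read at all. Of the 6 tested, Tdrd9, a helicase of transposon silencing, was called higher, with 7.13 and 7.58 RPKM in B7-H4-null and 0.041 and 0.0419 RPKM in wild type (adjusted p = 0.0183). Tdrd9 passed the filter through the B7-H4-null libraries alone, and its call too ended with no filter. Sycp3, a protein of the synaptonemal complex, had 0.473 and 0.907 RPKM in B7-H4-null and 3.51 and 2.06 RPKM in wild type (adjusted p = 0.295). Sycp3 passed the filter through the wild-type libraries alone. Zcwpw1, a histone reader of meiosis, had 10.2 and 6.92 RPKM in B7-H4-null and 5.78 and 3.4 RPKM in wild type. Dmc1, a recombinase known from meiosis, had 37.9 and 25.2 RPKM in B7-H4-null and 34.0 and 17.4 RPKM in wild type.

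The other tested members were abundant in all libraries. Their mean over the 4 libraries ran from 13.4 RPKM for Psma3 to 257 RPKM for Psmb4, a 19.2-fold range on a scale that accounts for length. Of these 37 genes, 25 lay above the 90th percentile of the 10441 tested protein-coding genes and 36 above the median. Each was covered by 147 to 3263 reads per library. Psmb11, which gives the thymus its own beta subunit, had 0.075 and 0.0435 RPKM in B7-H4-null and 0.371 and 0.0711 RPKM in wild type and was not tested.

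**Figure D2:**
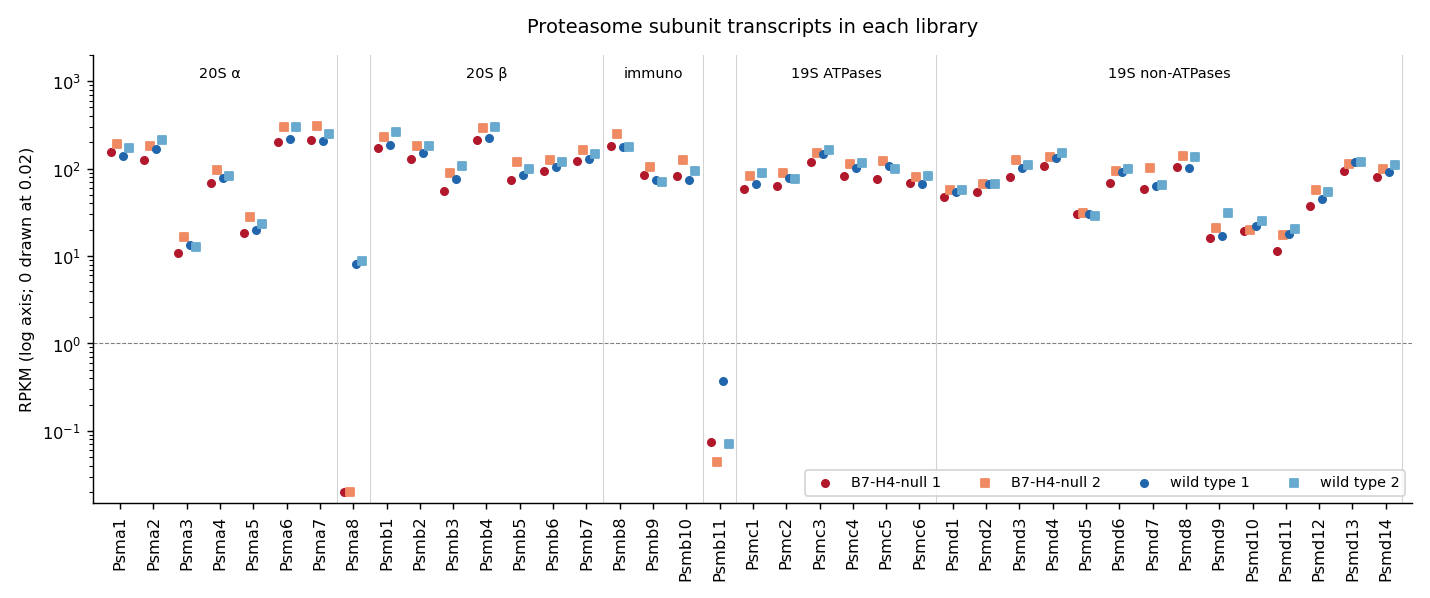
RPKM on a log axis (0 drawn at 0.02) for all 39 proteasome genes, with the B7-H4-null libraries left of the wild-type libraries for each gene; circles are replicate 1, squares replicate 2, and the dashed line is 1 RPKM. Psma3, Psma5, Psmd5, Psmd9, Psmd10 and Psmd11 are the lowest of the subunits expressed in all 4 libraries, Psma8 is at 0 in B7-H4-null only, and Psmb11 is below 1 RPKM throughout.

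The 7 constitutive alpha subunits did not separate the genotypes. Psma6 and Psma7 were the most abundant, at means of 254 and 244 RPKM, while Psma3 and Psma5 stood at 13.4 and 22.3 RPKM, an 18.96-fold range within a ring that holds the subunits in equal number. Psma3 had 10.9 and 16.6 RPKM in B7-H4-null and 13.5 and 12.6 RPKM in wild type. Psma5 had 18.4 and 27.9 RPKM in B7-H4-null and 19.9 and 23.0 RPKM in wild type. The annotation lists 6 pseudogenes under names of Psma5, Psmb5, Psmb6 and Psmb7, none with a row in the table, and the span of Psma3 overlaps a long noncoding RNA, so the levels of these 5 genes are less certain. Whether reads were shared was not tested. Log2 differences ran from −0.31 to 0.17 with a median of 0.04, against −0.09 for all genes tested. Psma2 was at the low end, with 126 and 183 RPKM in B7-H4-null and 166 and 215 RPKM in wild type (log2 difference −0.31 ± 0.301, adjusted p = 0.712). In 0 of 7 did the groups separate, beside 16% of all genes higher and 28% lower without overlap.

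The 7 constitutive beta subunits were more even, from 82.0 RPKM for Psmb3 to 257 RPKM for Psmb4, both structural subunits. Differences ran from −0.36 to 0.02 with a median of −0.06, which turned to 0.05 under median-ratio scaling. Again 0 of 7 separated the groups, beside 16% of all genes higher and 28% lower without overlap. Psmb3 had 56.1 and 88.3 RPKM in B7-H4-null and 76.6 and 107 RPKM in wild type (log2 difference −0.36 ± 0.324, adjusted p = 0.692). The catalytic subunits had nearly equal means in both genotypes. Psmb5, the chymotrypsin-like site, averaged 95.9 ± 31.0 RPKM in B7-H4-null and 92.1 ± 10.02 RPKM in wild type (SD, n = 2 each). Psmb6, the caspase-like site, averaged 109.9 ± 23.2 RPKM in B7-H4-null and 110.5 ± 10.1 RPKM in wild type. Psmb7, the trypsin-like site, averaged 142 ± 29.6 RPKM in B7-H4-null and 138.5 ± 14.04 RPKM in wild type (adjusted p = 0.983 to 0.985 for the 3).

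The immunoproteasome subunits were the class with the highest median difference, 0.28, but none passed the test. Psmb8, the chymotrypsin-like immunosubunit, had 179.7 and 247 RPKM in B7-H4-null and 175 and 177 RPKM in wild type. Both B7-H4-null libraries lay above both wild-type libraries, by a small margin for replicate 1 (log2 difference 0.26 ± 0.275, adjusted p = 0.739). Psmb9, the immunosubunit that replaces Psmb6, had 83.4 and 105.5 RPKM in B7-H4-null and 73.5 and 69.9 RPKM in wild type. Its groups did not overlap either (log2 difference 0.38 ± 0.256, adjusted p = 0.595). Psmb10, the trypsin-like immunosubunit, had 83.0 and 124 RPKM in B7-H4-null and 73.7 and 94.9 RPKM in wild type, so its groups overlapped (log2 difference 0.28 ± 0.302, adjusted p = 0.747). Without B7-H4-null replicate 2 these differences were 0.03 for Psmb8, 0.21 for Psmb9 and −0.01 for Psmb10. The 2 separated members compare with 16% of all genes higher without overlap.

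Set against the subunit it replaces in the same library, each immunosubunit took a larger share in B7-H4-null LSCs, and in all 3 slots the groups did not overlap. Psmb9 made up 47.1% and 45.5% of the Psmb9 and Psmb6 total in B7-H4-null, against 41.6% and 37.3% in wild type. Psmb10 made up 40.7% and 43.2% of its total with Psmb7 in B7-H4-null, against 36.4% and 39.0% in wild type. Psmb8 made up 70.8% and 67.7% of its total with Psmb5 in B7-H4-null, against 67.4% and 64.05% in wild type, where the lower B7-H4-null and the higher wild-type value almost touch. The mean differences were 6.91, 4.22 and 3.55 percentage points. Over all 3 slots the immunosubunits held 54.2% ± 0.434 in B7-H4-null and 49.4% ± 1.51 in wild type (SD, n = 2 each). The shares were not tested, and how often such a share separates the groups for other gene pairs was not computed. The 3 slots come from the same libraries, so they are not separate observations. Among single genes, 16% lay higher and 28% lower in B7-H4-null without overlap. A two-sided exact permutation test with 2 libraries a group could give no p below 0.333. The shares do not depend on a scaling factor between libraries. Leaving out 1 library at a time gave differences between 1.89 and 9.06 points. Their sign could not change, because the groups did not overlap. The part of the monocyte and neutrophil marker levels and of the Flt3 level given above in these shares was not tested.

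**Figure D3:**
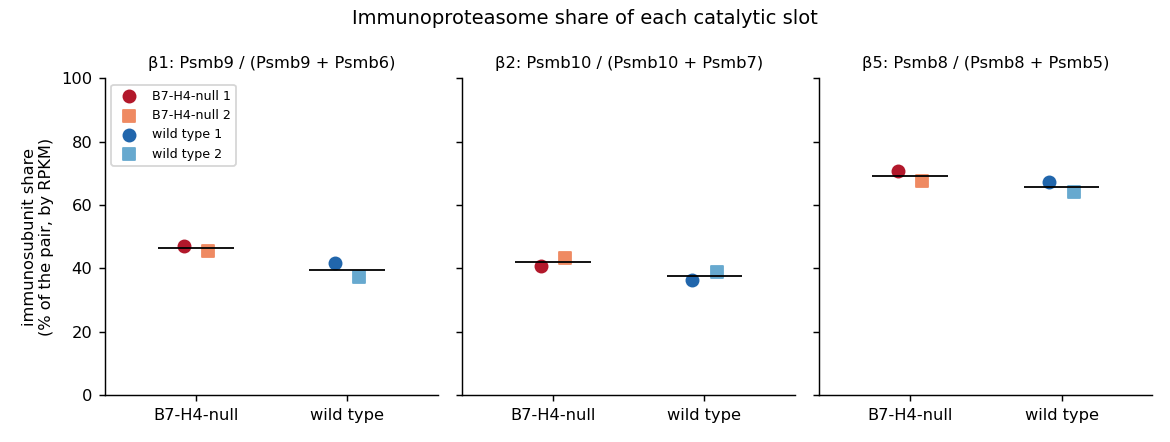
Share of the immunosubunit (percent of the pair's RPKM, vertical axis from 0 to 100) in the β1, β2 and β5 slots, B7-H4-null left of wild type; circles are replicate 1, squares replicate 2 and bars the means. Both B7-H4-null libraries lie above both wild-type libraries in each slot, with mean differences of 6.91, 4.22 and 3.55 percentage points. The slots come from the same libraries, and the differences were not tested.

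Of the 9 genes of interferon-inducible class I presentation, a list that includes the regulators of the immunosubunits, 0 were called. At an unadjusted p under 0.05, 2 were higher, against 5.05% of all genes, and 3 lay above wild type in both B7-H4-null libraries, against 16% of all genes. Nlrc5, the activator of class I genes, had 1.61 and 1.76 RPKM in B7-H4-null and 0.426 and 0.478 RPKM in wild type (log2 difference 0.88, adjusted p = 0.319). Nlrc5 is counted in both numbers, though it passed the filter through the B7-H4-null libraries alone. B2m, the light chain of class I, had 1138 and 1135 RPKM in B7-H4-null and 631 and 702 RPKM in wild type (adjusted p = 0.336). Tap1, which shares its promoter window with Psmb9, had 50.8 and 45.7 RPKM in B7-H4-null and 37.7 and 42.0 RPKM in wild type (adjusted p = 0.691). Tapbp, which loads peptides, had 35.4 and 60.2 RPKM in B7-H4-null and 58.9 and 88.5 RPKM in wild type, and Irf8, an interferon regulatory factor of myeloid cells, 59.6 and 79.1 RPKM in B7-H4-null and 33.5 and 65.7 RPKM in wild type. The list's median log2 difference was 0.27, close to that of the immunosubunits.

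The 6 ATPases of the 19S base, which unfold substrates and thread them into the core, had log2 differences between −0.21 and −0.01 and a median of −0.12. Their levels were even, from 73.9 RPKM for Psmc6 to 145 RPKM for Psmc3, a 1.96-fold range. Psmc3 had 119.6 and 149.9 RPKM in B7-H4-null and 145 and 165 RPKM in wild type. Psmc5 had 76.7 and 121 RPKM in B7-H4-null and 106 and 98.1 RPKM in wild type. In 0 of 6 did the groups separate, beside 16% of all genes higher and 28% lower without overlap.

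The 14 genes of the Psmd name had a median of −0.17, with 11 below 0 and 3 above, and 0 passed the test. In 4 both B7-H4-null libraries lay below both wild-type libraries, which is 28.6% beside 28% of all genes tested. After quantile normalization the count was 8 of 14 (57.1%), against 25.5% of all genes. After median-ratio scaling it was 3 of 14 (21.4%), against 22.2% of all genes, with 2 higher (14.3%), against 22.1%. Psmd11, a scaffold of the 19S lid, had 11.5 and 17.3 RPKM in B7-H4-null and 17.9 and 20.4 RPKM in wild type (log2 difference −0.41 ± 0.284, adjusted p = 0.605). Psmd10, the assembly chaperone gankyrin, had 19.1 and 20.1 RPKM in B7-H4-null and 22.3 and 25.4 RPKM in wild type (log2 difference −0.27 ± 0.24, adjusted p = 0.689). The Psmd10 gene overlaps Atg4a by 2867 bases, and reads without strand cannot be assigned between them. Psmd2, a large scaffold of the 19S base, had 53.4 and 66.2 RPKM in B7-H4-null and 66.7 and 67 RPKM in wild type. Psmd13, of the lid, had 92.9 and 114 RPKM in B7-H4-null and 119.1 and 119.7 RPKM in wild type.

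Psmd14, the deubiquitinase of the lid, averaged 89.6 ± 12.4 RPKM in B7-H4-null and 101.2 ± 13.7 RPKM in wild type, and Psmd4, a ubiquitin receptor, 120.9 ± 20.5 RPKM in B7-H4-null and 141.5 ± 13.5 RPKM in wild type (SD, n = 2 each). Psmd7, the partner of Psmd14, was the highest of the class by difference, at 58.5 and 100.9 RPKM in B7-H4-null and 63.5 and 64.9 RPKM in wild type (log2 difference 0.26 ± 0.318, adjusted p = 0.779). Its mean rests on B7-H4-null replicate 2, without which the difference was −0.13. Psmd5 and Psmd9, assembly chaperones that leave the finished particle, differed in how steady they were. Psmd5 had 30.0 and 30.7 RPKM in B7-H4-null and 30.6 and 28.7 RPKM in wild type, the narrowest range of any tested member. Psmd9 had 15.9 and 21.0 RPKM in B7-H4-null and 16.8 and 31.3 RPKM in wild type, a wide spread in wild type.

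**Figure D4:**
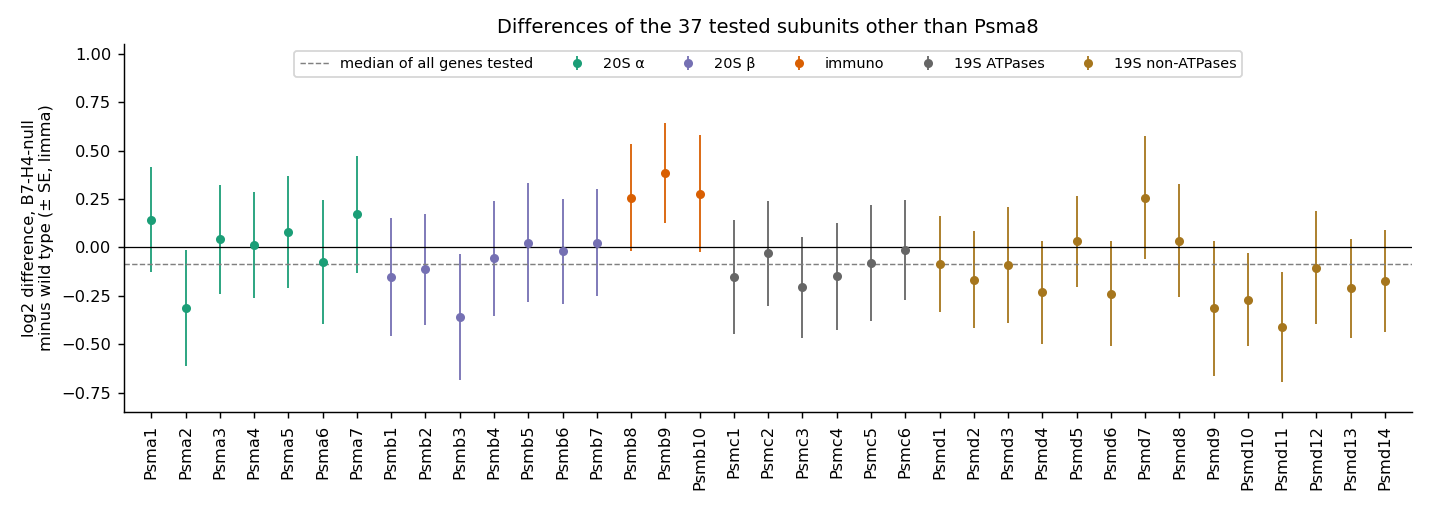
Log2 difference of log2(RPKM + 1), B7-H4-null minus wild type, with its standard error from limma (n = 2 per group) for the 37 tested subunits other than Psma8; the dashed line is the median of all genes tested, −0.09. The 3 immunosubunits lie between 0.26 and 0.38, and the 19S subunits lie mostly below 0, from −0.41 to 0.26.

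Over all 37 members other than Psma8, limma called 0, and 0 reached an unadjusted p under 0.05, where 5.05% of all genes were higher and 7.2% lower at that level. The smallest unadjusted p among them was 0.18 (Psmb9). Their median log2 difference was −0.08, beside −0.09 for all genes. Voom, an alternative fit on reads, also called none of them (smallest adjusted p = 0.59). A total of 2 were higher and 4 lower without overlap, or 5.41% and 10.8%, against 16% and 28% of all genes. After quantile normalization 1 was higher and 10 lower, or 2.7% and 27%, against 19.1% and 25.5% of all genes. After median-ratio scaling 5 were higher and 3 lower, or 13.5% and 8.11%, against 22.1% and 22.2%.

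The subunits moved together between libraries of the same genotype. All 37 were higher in B7-H4-null replicate 2 than in B7-H4-null replicate 1, by a median of 1.37-fold, where 61.2% of all genes were higher and the median was 1.11-fold. In wild type 32 of 37 were higher in replicate 2 than in replicate 1, by a median of 1.15-fold, against 53.5% of all genes and 1.02-fold. The summed RPKM of all 39 was 0.607% and 0.806% of the library's total in B7-H4-null replicates 1 and 2 and 0.698% and 0.818% in wild-type replicates 1 and 2. After median-ratio scaling the counts were 35 and 29 of 37, against 52.4% and 51.4% of all genes. With quantile normalization they were 35 and 27 of 37, against 53.9% and 51.4%. These libraries share a number between genotypes, and the labels do not say what the number stands for.

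**Figure D5:**
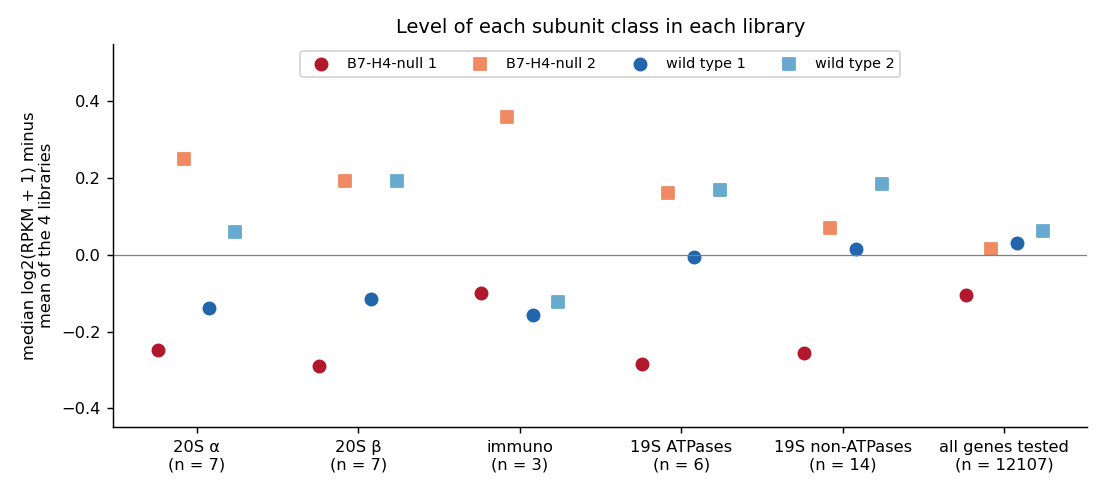
Median over each subunit class of log2(RPKM + 1) in a library minus the gene's mean of the 4 libraries (vertical axis, log2 units), with B7-H4-null libraries left of wild-type libraries; circles are replicate 1 and squares replicate 2. B7-H4-null replicate 1 is the lowest in the constitutive and 19S classes, at −0.25 to −0.29, and in the immunoproteasome class only B7-H4-null replicate 2 lies above 0, at 0.36.

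Genes that assemble, activate and regulate the proteasome were read beside the subunits, and voom also called 0 in each of these lists and in that of class I presentation. Of 6 assembly chaperones 0 were called and 0 had an unadjusted p under 0.05. Psmg4, which helps form the alpha ring, had 66.3 and 72.5 RPKM in B7-H4-null and 39.2 and 52.1 RPKM in wild type (log2 difference 0.61, adjusted p = 0.422). It was the 1 member of the 6 whose groups did not overlap, beside 16% of all genes higher without overlap. Pomp, which matures the beta ring, had 140.2 and 215 RPKM in B7-H4-null and 152 and 187 RPKM in wild type. Psmg2 and Psmg1, partners in alpha ring assembly, had log2 differences of 0.32 and 0.33 (adjusted p = 0.677 and 0.727), and Akirin2, which brings proteasomes into the nucleus, of −0.25 (adjusted p = 0.755).

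Of 19 activators, inhibitors and receptors 0 were called (1 at an unadjusted p under 0.05). Without overlap 3 were higher and 1 lower, against 16% and 28% of all genes. Zfand5, a zinc finger protein that stimulates proteasomes, had 54.3 and 21.4 RPKM in B7-H4-null and 17.6 and 9.64 RPKM in wild type (log2 difference 1.32, adjusted p = 0.357). Ecpas, a proteasome-binding scaffold, had 57.0 and 37.2 RPKM in B7-H4-null and 33.5 and 28.6 RPKM in wild type (adjusted p = 0.501). Psme2, a subunit of the interferon-induced activator, had 27.5 and 39.8 RPKM in B7-H4-null and 25.7 and 24 RPKM in wild type (adjusted p = 0.604). Zfand2a, an arsenite-induced relative of Zfand5, had 51.4 and 13.7 RPKM in B7-H4-null and 15.5 and 16.5 RPKM in wild type. Psme4, the activator that acts with Psma8 in the testis, had 15.03 and 15.7 RPKM in B7-H4-null and 16.7 and 16.5 RPKM in wild type (adjusted p = 0.885).

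Of 6 regulators of proteasome genes 0 were called and 0 had an unadjusted p under 0.05. Their groups separated in 0 of 6, beside 16% of all genes higher and 28% lower without overlap. Nfe2l1, which induces proteasome genes when proteasomes are inhibited, had 26.0 and 29.3 RPKM in B7-H4-null and 24.1 and 26.5 RPKM in wild type (adjusted p = 0.87). Nfe2l2, its stress-responsive relative, had 41.0 and 21.8 RPKM in B7-H4-null and 22.04 and 12.03 RPKM in wild type (log2 difference 0.84, adjusted p = 0.471). Ddi2, the protease that activates Nfe2l1, had 20.9 and 40.7 RPKM in B7-H4-null and 23.1 and 44.3 RPKM in wild type, low in replicate 1 of both genotypes as the subunits were.

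Ubb, a polyubiquitin gene, had 424 and 222 RPKM in B7-H4-null and 199.7 and 208 RPKM in wild type (log2 difference 0.59, adjusted p = 0.563). Rps27a, which joins ubiquitin to a ribosomal protein, had 91.6 and 102.2 RPKM in B7-H4-null and 68.3 and 79.5 RPKM in wild type (log2 difference 0.39, adjusted p = 0.583). In both, B7-H4-null was higher without overlap, as in 16% of all genes. Ubb, like Zfand5 and Zfand2a, was highest in B7-H4-null replicate 1, the library in which the summed subunit level was lowest.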

How the data were processed

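RNA-seq of 2 B7-H4-null and 2 wild-type LSC libraries was analysed from 1 deposited table. The authors deposited RPKM per Entrez gene ID, a unit taken from the values, and the submitters' processing notes name TopHat2 2.0.12 and GRCm38. The counting program, its annotation and its use of strand were not given in the sources used here. Reads of overlapping genes cannot be told apart. Symbols, biotypes and positions came from NCBI's gene table of GRCm38.p6 for 25275 of 27179 IDs.

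Library totals were recovered by finding the total that turns the smallest values into whole gene lengths, and reads with the smallest length that fits all libraries. Of 14608 genes above 0 in every library, 14606 came out whole to within 0.01 read. Reads could be a multiple of those given. Floors (3 reads) reflect counting error alone.

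The 12107 genes with at least 1 RPKM in 2 or more libraries were tested with limma 3.58.1 in R 4.3.3 on log2(RPKM + 1), fitting genotype alone with a mean-variance trend and Benjamini-Hochberg adjustment over all genes at 0.05. This scale understates changes of low genes. The test was tested on simulated data, where a larger share of its calls was false than the adjustment aims at. The count test named in the design for raw counts was not needed. Alternatives were a pseudocount of 0.1, no filter, a filter at 5 RPKM, median-ratio and quantile scaling, no trend, a replicate block, voom on recovered reads and leaving out each library.

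The members and lists were chosen with earlier results of these data known. Of each related list, the members with the smallest p are named, up to 4, and others named were chosen after their values were seen. Lists are described by counts and medians, with no list test. Part of the list of ubiquitin supply is not reported here.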

Additional observations from a re-analysis of the deposited data

How the results depend on the processing

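With 2 libraries per group, leaving out 1 library could end a call or turn a sign. Leaving out each library in turn moved the genes called to between 0 and 36 higher and between 0 and 20 lower, and the called members to between 0 and 1, with 0 whenever a B7-H4-null library was left out. The Psma8 difference ranged from −3.29 to −3.19 in these fits. It was −6.42 with a pseudocount of 0.1 and −8.18 with voom, so its size depends on the setting. It was −3.24 with no filter on low values, where limma called 0 genes in either direction and 0 members (adjusted p = 0.253). Under the other alternatives that kept all libraries Psma8 kept its call, with adjusted p between 0.0109 (voom) and 0.0367 (pseudocount of 0.1). No other member was called under any of the alternatives.

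Class medians without 1 library ranged from −0.23 to 0.30 for 20S alpha, −0.31 to 0.16 for 20S beta, 0.0293 to 0.55 for the immunosubunits, −0.37 to 0.10 for the 19S ATPases and −0.34 to −0.01 for the Psmd genes. The Psmb10 difference ranged from −0.0103 to 0.56 and that of Psmd7 from −0.13 to 0.64. Median-ratio scaling changed the sign of 8 of 38 members and quantile normalization of 4. These include Psmb4, at the 20S beta median, Psmc6, at the upper end of the 19S ATPases, and Psmb5, at that of 20S beta. In counts added after seeing the data, members without overlap were 5 higher and 3 lower after median-ratio scaling, with 22.1% and 22.2% of all genes, and 1 higher and 10 lower after quantile normalization, with 19.1% and 25.5%. With the replicate number as a block, limma called 12 genes higher and 9 lower, and Psma8 stayed called (adjusted p = 0.0287). Same-numbered libraries deviated together (r = 0.247 across genes), but with only 2 numbers that the labels do not explain, this does not pair them. The block changed no member's call.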
